A study of Gallus gallus with 6 samples.

Results

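*ALX1* and *ALX4* are paired-class homeobox genes of the facial mesenchyme, and their transcripts were measured in the 3 facial prominences of *talpid2* and control chick embryos. *ALX1* was found by its gene symbol. *ALX4* is listed under a protein entry name and was found by its Entrez identifier, so that both genes, 2 of the 10337 in the data, are present. The samples were the frontonasal prominence (FNP), the maxillary (MXP) and the mandibular one (MNP) of *talpid2* and control embryos at Hamburger-Hamilton stage HH25, dissected by hand and combined from several embryos before RNA extraction. *talpid2* is an inherited chick mutation that disrupts primary cilia and the Hedgehog signalling that depends on them, and the labels call the other embryos control embryos without naming their genotype further. The study kept the mutation on an inbred line and on a commercial white leghorn line, each with its parent line, and which of these gave the RNA is not given in the sources used here. There was 1 library for each genotype and prominence, 6 in all, so differences between genotypes could not be checked against replicates. A pool hides the variation between embryos, and a prominence holds ectoderm, vessels and nerve beside its mesenchyme, so that fewer cells of a type and less RNA per cell cannot be told apart.

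ALX proteins bind DNA through a paired-type homeodomain, as dimers at palindromic sites, and are made by neural crest cells that populate the upper face and skull. Loss of *ALX1* or *ALX4* causes forms of frontonasal dysplasia in people, in which the midface stays broad or cleft. *ALX4* is also known for skull ossification defects in people and for extra anterior digits in the mouse mutant Strong's luxoid, and variation at *ALX1* has been linked to beak shape in Darwin's finches.

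Values are log2 levels that the authors scaled by library, with each gene's median over the 6 libraries set to 0. They compare libraries for 1 gene and give no level between genes. Undone from the log, the values step by 1 base of a 50-base read, which let reads be recovered for 5211 genes (50.4%) with up to 1000 reads in their highest library. Reads here are whole bases divided by 50 and can be fractional. In genes with few reads, 6.35% of values were whole reads. For the exact tests they were rounded to whole reads. Both *ALX* genes lie above that range. For them only the smallest number of reads that gives the 6 values is known. Every interval of a difference between 2 libraries below is a 95% Clopper-Pearson interval at that number. It covers counting error only and is the widest over the read numbers that could give the values. The RNA was amplified, so copies of 1 molecule can count as separate reads, which the interval does not cover. The relative depth of the libraries, on the same scale, was between 0.949 and 1.204. GAPDH, the reference gene of the alternative scaling, was itself 0.34 higher in the FNP than in the other prominences (log2, mean of both genotypes).

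*ALX1* (ENSGALG00000011144) lies on the plus strand of chromosome 1, positions 43729301 to 43749274 of the authors' file, a span of 19974 bases. The chick assembly behind these positions is not named in the sources used here. The log2 level of *ALX1* was 2.16 in *talpid2* FNP and 1.94 in control FNP. It was 0.08 in *talpid2* MXP and -0.08 in control MXP, and -1.56 in *talpid2* MNP and -1.73 in control MNP. In both genotypes the FNP was highest, the MXP intermediate and the MNP lowest. The fewest reads that give these values were 4993 in *talpid2* FNP and 5184 in control FNP, against 402.4 in *talpid2* MNP and 426.7 in control MNP.

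*ALX4* (ENSGALG00000008024) lies on the minus strand of chromosome 5, positions 23812602 to 23839873 of the same file, a span of 27272 bases. The log2 level of *ALX4* was 0.80 in *talpid2* FNP and 0.90 in control FNP. It was -0.55 in *talpid2* MXP and -0.07 in control MXP, and 0.04 in *talpid2* MNP and -0.04 in control MNP. The FNP was again highest in both genotypes, but the MXP and MNP of control embryos were close together, and the lowest of the 6 libraries was *talpid2* MXP. The fewest reads that give the values ran between 802.8 in *talpid2* MXP and 2532 in control FNP.

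**Figure D1:**
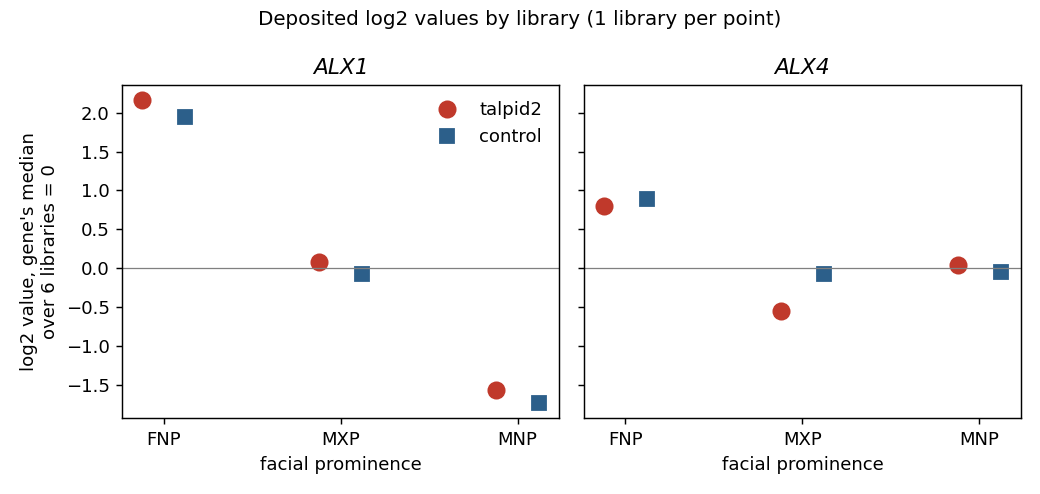
Deposited log2 levels of *ALX1* and *ALX4* (vertical axis, each gene's median over 6 libraries at 0) in the FNP, MXP and MNP, with 1 point per library, *talpid2* as circles and control as squares. *ALX1* steps down from about 2 in the FNP to -1.56 and -1.73 in the MNP, whereas *ALX4* is high in the FNP and lowest in *talpid2* MXP at -0.55.

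To examine how far the FNP stands above the other prominences, each pair of libraries of 1 genotype was compared. *ALX1* in the FNP exceeded the MXP by 2.08 in *talpid2* embryos (interval 1.99 to 2.18) and by 2.02 in control embryos (1.93 to 2.12), about 4.24-fold and 4.06-fold. A difference of at least 1 in this direction was reached by 3.34% of all genes in *talpid2* embryos and by 3.76% in control embryos. The excess over the MNP was larger, 3.72 in *talpid2* embryos (3.58 to 3.87) and 3.67 in control embryos (3.53 to 3.82), or 13.2-fold and 12.8-fold. Here 3.36% of all genes in *talpid2* embryos and 3% in control embryos reached 1. Between the MXP and the MNP, *ALX1* differed by 1.64 in *talpid2* embryos (1.48 to 1.81) and by 1.65 in control embryos (1.49 to 1.82), and 2.11% and 1.95% of genes reached 1 in that direction. *ALX1* thus stood at 3 levels in these libraries. In both genotypes the interval of each step, which covers counting error only, excluded 0.

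*ALX4* in the FNP exceeded the MXP by 1.35 in *talpid2* embryos (1.23 to 1.47) and by 0.96 in control embryos (0.86 to 1.06). Its excess over the MNP was 0.76 in *talpid2* embryos (0.65 to 0.86) and 0.94 in control embryos (0.84 to 1.04). Only the first of these 4 differences passed 1 on the log2 scale. With *GAPDH* set equal, the excess over the MXP was 1.11 in *talpid2* embryos and 0.60 in control embryos, and that over the MNP was 0.42 in *talpid2* embryos and 0.51 in control embryos. The gap between the MXP and MNP differed in size between the genotypes. In *talpid2* embryos the MXP was lower than the MNP by a log2 difference of -0.59 (-0.72 to -0.46), whereas in control embryos the difference was -0.02 (-0.14 to 0.09, 2-sided exact Audic-Claverie test, p = 0.712), so that these neighbouring control levels did not differ beyond counting error. Among genes with recovered reads, 27.6% passed that test between the same control libraries, but these genes have fewer reads there than *ALX4*.

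The genotypes were then used as the only repeat of a prominence, in a limma fit of prominence and genotype over all 10337 genes with 2 residual degrees of freedom. *ALX1* was 2.87 ± 0.05 (SE) higher in the FNP than in the mean of the MXP and MNP, or 7.34-fold (limma, Benjamini-Hochberg adjusted p = 0.00121). *ALX4* was 1.0 ± 0.14 higher (limma, adjusted p = 0.0294). In this direction 5.85% of all genes passed, with 4.89% in the other, and by size *ALX1* stood at place 33 and *ALX4* at place 259. The calls for all genes numbered 605 higher and 505 lower in the FNP, but 464 higher and 6782 lower when *GAPDH* was set equal across libraries. Under that scaling the FNP excess was 2.54 for *ALX1* and 0.66 for *ALX4*, and both still passed (limma, adjusted p = 9.723e-04 and 0.0200). With so many genes called, the adjustment is more lenient, and *ALX4* had a lower adjusted p at a smaller excess. Passing under that scaling therefore says little about how robust the calls are. The *ALX1* call held without any 1 of the 6 libraries. Each of these fits has 1 residual degree of freedom, so that calls are lost more easily than in the full fit. *ALX4* kept its call in 1 of the 6. Its excess was 1.12 without control MXP (limma, adjusted p = 0.0435), but it lost the call without *talpid2* FNP (0.95, adjusted p = 0.163), control FNP (1.05, 0.149), *talpid2* MXP (0.88, 0.0503), *talpid2* MNP (1.09, 0.0566) or control MNP (0.91, 0.0720).

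By pairs in the same fit, *ALX1* was higher in the FNP than in the MXP (2.05, limma, adjusted p = 0.00326) and the MNP (3.70, adjusted p = 9.085e-04), and higher in the MXP than in the MNP (1.65, adjusted p = 0.00519). These calls were shared by 4.51%, 5.25% and 1.99% of genes. *ALX4* was higher in the FNP than in the MXP (1.15, limma, adjusted p = 0.0369). Its difference between the FNP and the MNP was 0.85 (adjusted p = 0.0567) and that between the MXP and the MNP was -0.31 (adjusted p = 0.417), neither of which passed.

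**Figure D2:**
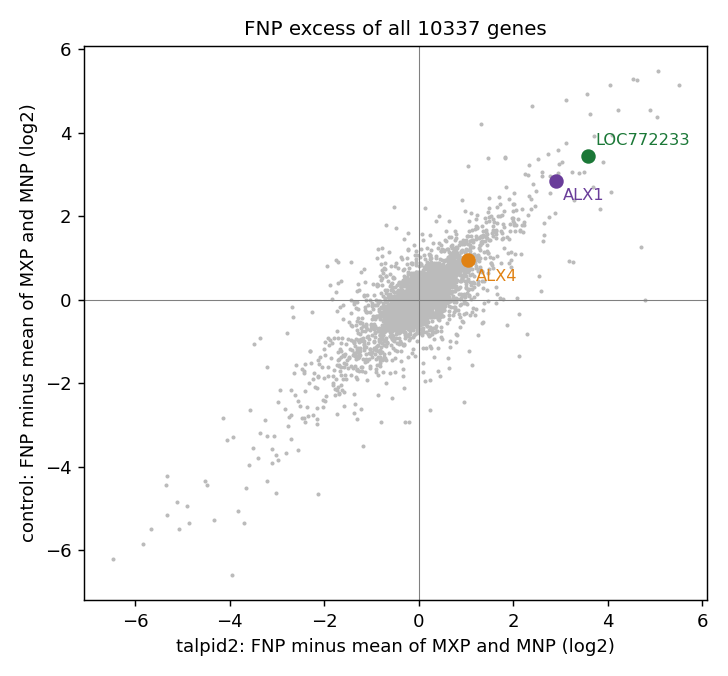
FNP level minus the mean of the MXP and MNP levels for all 10337 genes (log2), in *talpid2* embryos on the horizontal axis and in control embryos on the vertical axis, 1 grey point per gene. *ALX1* lies at 2.90 and 2.85, *ALX4* at 1.05 and 0.95, and *LOC772233*, the gene next to *ALX1*, at 3.59 and 3.44.

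Within each genotype, the FNP excess over the mean of the other prominences was 2.90 in *talpid2* embryos and 2.85 in control embryos for *ALX1*, and 1.05 in *talpid2* embryos and 0.95 in control embryos for *ALX4*. The FNP excess was at least 1 in both genotypes for 195 genes, 1.89% of all. *ALX1* was among them, and *ALX4* was not, since its control value fell just short. A graded pattern, with at least 1 between the FNP and the MXP and again between the MXP and the MNP in both genotypes, was found for 15 genes (0.145%). Ordered by their smallest step, *LOC772233* came first (1.98) and *ALX1* second (1.64).

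The *talpid2* and control libraries of each prominence were then compared. With 1 pooled library on each side, a difference cannot be assigned to the mutation. *ALX1* was higher in *talpid2* FNP by 0.22 (0.16 to 0.27), or 1.16-fold. For the MXP the difference was 0.16 (0.04 to 0.27) and for the MNP it was 0.17 (-0.03 to 0.37). All 3 differences were positive, and the MNP interval included 0. At the fewest reads possible, the exact Audic-Claverie test between the libraries gave p = 2.836e-14 (FNP), 0.0101 (MXP) and 0.105 (MNP). This test compares libraries and not genotypes. Among the 5211 genes with recovered reads it passed 22.1% (FNP), 17.4% (MXP) and 18.8% (MNP). Those genes have at most 1000 reads in their highest library, fewer than *ALX1* in its highest. With more reads the test passes smaller differences, so these shares are not those of genes as deep as *ALX1*. A further 5083 genes had no recovered reads and at most 1 library at the floor of the scale, and these are mostly genes with many reads. Of them, 17.8% (FNP), 27.2% (MXP) and 21.7% (MNP) differed by as much as *ALX1* in either direction. With *GAPDH* set equal, the MXP difference was 0.044 (exact Audic-Claverie test, p = 0.478) and the MNP difference 0.086 (p = 0.424 by the same exact test), whereas that in the FNP was 0.23.

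*ALX4* was lower in *talpid2* MXP by a log2 difference of -0.48 (-0.61 to -0.35), or 0.718 of the control level. For the FNP the difference was -0.10 (-0.18 to -0.01), and for the MNP it was 0.09 (-0.02 to 0.20). At the fewest reads possible the exact Audic-Claverie test gave p = 4.856e-13 for the MXP, 0.0285 for the FNP and 0.125 for the MNP. Of the same 5083 genes, 2.95% (MXP), 49.8% (FNP) and 48.1% (MNP) differed by as much as *ALX4*. The MXP difference was -0.59 with *GAPDH* set equal, whereas the FNP difference no longer passed (-0.085, exact Audic-Claverie test, p = 0.0508) and the MNP difference was 0.0054 (p = 0.940 by the same exact test). Neither *ALX* gene reached a difference of 1 between genotypes in any prominence, which 0.813% of all genes did upward and 1.04% downward in the FNP. The shares were 0.9% upward and 0.822% downward in the MXP, and for the MNP 0.6% upward and 0.938% downward.

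**Figure D3:**
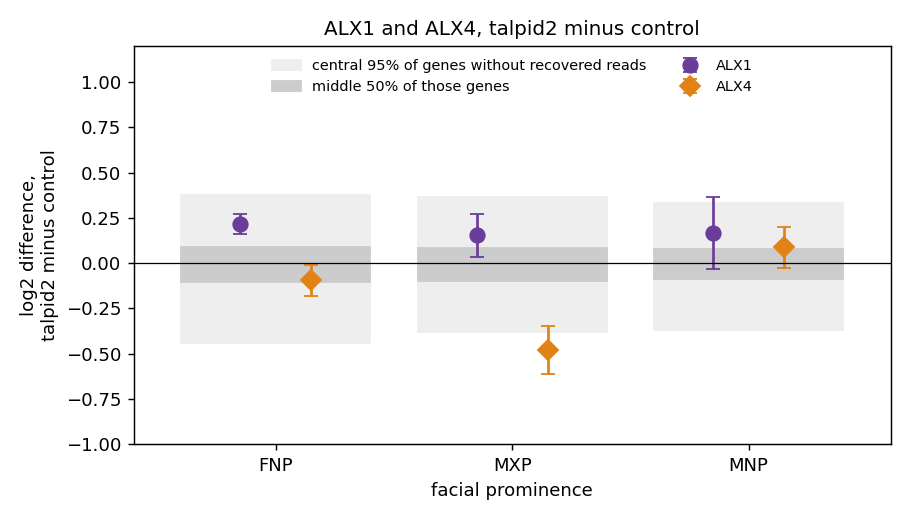
*talpid2* minus control log2 difference of *ALX1* (circles) and *ALX4* (diamonds) in each prominence, with 95% counting intervals at the fewest reads possible. Bands show the middle 50% (dark band) and the central 95% (light band) of the 5083 genes without recovered reads and with at most 1 library at the floor. Only *ALX4* in the MXP, at -0.48, lies outside the light band.

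Whether the *talpid2* to control ratio differed between prominences was tested directly, with an exact conditional test of equal ratios adjusted over the 6 pairs compared. For *ALX4* the ratio in the FNP exceeded that in the MXP by 0.38 (adjusted p = 4.525e-06), and the ratio in the MXP was below that in the MNP by a log2 difference of -0.57 (adjusted p = 5.880e-10). The ratio in the FNP differed from that in the MNP by -0.18 (adjusted p = 0.022), but by -0.091 with *GAPDH* set equal (adjusted p = 0.258), where the other 2 pairs still passed. As large a difference between prominences was shown by 7.38%, 2.4% and 22.4% of the 5083 genes in these 3 pairs. For *ALX1* the ratios differed by 0.06 (FNP minus MXP), 0.05 (FNP minus MNP) and -0.01 (MXP minus MNP). The same exact test gave adjusted p = 0.533, 0.772 and 0.958 in that order. With *GAPDH* set equal, the FNP minus MXP difference of *ALX1* was 0.18 (adjusted p = 0.0117). These tests cover counting error alone, since each ratio comes from 1 pair of pooled libraries.

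Across the 3 prominences, the limma fit gave a *talpid2* minus control difference of 0.18 for *ALX1* (95% interval 0.05 to 0.31, unadjusted p = 0.0186, adjusted p = 0.289). For *ALX4* it was -0.16 (-0.52 to 0.20, limma, adjusted p = 0.569). Both intervals rest on the spread between libraries, with the 3 prominences standing in as repeats of the genotype contrast. Prominences are not replicates of a genotype, so the spread between embryos is not covered. Without either MXP library, *talpid2* or control, the *ALX4* difference was -0.0038 (limma, adjusted p = 0.987), and without either MNP library it was -0.29 (adjusted p = 0.599). limma called 0 genes for genotype (0% in each direction), with 1542 at an unadjusted p under 0.05.

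Markers of other tissues moved with genotype in the same libraries. Of 7 measured red cell genes, 6 were lower by at least 1 in *talpid2* FNP and 4 in *talpid2* MXP, against 1.04% of all genes in the FNP and 0.822% in the MXP. The list's median differences were -1.48 in the FNP and -1.04 in the MXP. The median was -0.67 in the MNP. The embryonic globin *HBZ* differed by -1.64 in the FNP, by -1.23 in the MXP and by -0.78 in the MNP. In the MXP, where *ALX4* was low in *talpid2* embryos, 1 of 3 measured eye and lens genes was higher by at least 1, against 0.9% of all genes. It was the lens crystallin gene *ASL1* (4.79), with *FOXE3* at -0.43 and *SIX6* at the floor in both genotypes. In the FNP, *ASL1* was also 2.63 higher in *talpid2* embryos, whereas *FOXE3* differed by -1.02 and *SIX6* by -0.42. Of 6 measured forebrain genes, 1 was lower by at least 1 in the MXP, the homeobox gene *EMX2* (-2.00), which differed by -1.92 in the MNP, and the list's median in the MXP was -0.18. *ASL1* and *EMX2* lay within the authors' limits in 2 libraries each, and *ALX4* differed by -0.10 in the FNP and 0.09 in the MNP. The 5 measured epithelial genes lay between -0.38 and 0.16 in the MXP. The part of these tissues in the *ALX4* difference was not tested.

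*SHH*, the ligand of the Hedgehog pathway, had 425 reads in *talpid2* FNP and 239.7 in control FNP, 119.2 in *talpid2* MXP and 39.84 in control MXP, and 172 in *talpid2* MNP and 169.02 in control MNP. Its *talpid2* minus control differences were 1.10, 1.59 and 0.28 in that order. The Hedgehog receptor and target *PTCH1* differed by -0.40, 0.12 and -0.48, and *PAX9*, a paired-box gene of the nasal and arch mesenchyme, by 0.33, 0.31 and 0.33. In the MXP, where *SHH* was most raised, *ALX1* differed by 0.16 and *ALX4* by -0.48.

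The other genes were grouped by what they are known for, and each count below stands against the 5.85% of all genes called higher and the 4.89% called lower in the FNP. Of 23 listed paired-class homeobox genes, 7 were measured, and limma called 1 higher and 4 lower in the FNP, with a list median of -1.05 against -0.0035 over all genes. Both *ALX* genes, which the list leaves out, lay above that median. *PRRX1*, a mesenchymal gene of limb and face, had a limma log2 difference of -1.59 (adjusted p = 0.0142). *SHOX*, known for limb growth, had a limma difference of -3.49 (adjusted p = 0.0164) and lay within the authors' limits in 2 libraries. *PITX1*, a hindlimb and oral gene, had one of -1.05 (adjusted p = 0.0441). *DMBX1*, a gene of the midbrain, was called higher in the FNP and *PITX3*, a lens and midbrain gene, lower, but each was at the floor of the scale in 1 library and lay within the authors' limits in 2, so no fold is given.

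Of 23 frontonasal genes, 14 were measured, with 5 called higher (5.85% of all genes) and 1 lower (4.89%). *EYA2*, a transcriptional coactivator of sensory placodes, was 2.41 higher in the FNP (limma, adjusted p = 0.00373), and *TFAP2B*, a neural crest transcription factor, 2.29 higher (adjusted p = 0.00816). The other genes called higher were *TFAP2A* (1.30), *BMP4* (0.88) and *MSX2* (0.72), which stand outside the naming rule. *MEIS1*, a TALE homeobox gene, was the 1 gene called lower (limma log2 difference -1.42, adjusted p = 0.0111). The list's median was -0.0024, below both *ALX* genes.

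Of 20 branchial arch genes, 12 were measured, and 8 were called lower (4.89% of all genes) and 1 higher (5.85%) in the FNP, with a list median of -1.27. *DLX1*, a homeobox gene of the arches, had a difference of -6.34 and *LHX6*, a LIM homeobox gene of the oral mesenchyme, of -3.59 (limma, adjusted p = 8.146e-04 and 0.00278). *HAND2*, which marks the ventral arch, differed by -3.53 and *GSC*, a homeobox gene of the arch mesenchyme, by -2.02 (limma, adjusted p = 0.00702 and 0.00937). All 4 ran opposite to *ALX1* and *ALX4*. *DLX1* lay within the authors' limits in 4 libraries and *HAND2* in 2. The 1 gene called higher was *EDNRA*, the endothelin receptor of the arches (0.63).

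Of 17 skull and suture genes, 11 were measured, with 4 called higher and 1 lower in the FNP and a list median of 0.34. *SOX9*, the cartilage regulator, was 1.29 higher and *FGFR2*, a receptor mutated in craniosynostosis in people, 1.01 higher (limma, adjusted p = 0.00937 and 0.00741). *POSTN*, a matrix protein of periosteum, was 0.76 higher (adjusted p = 0.0223), whereas *TWIST2*, a mesenchymal regulator, had a difference of -1.04 (adjusted p = 0.0167). *MSX2* was the other gene called higher. With *GAPDH* set equal, each FNP excess given here is smaller by 0.34, as large as this list's median. Of 9 measured genes of the anterior limb and Hedgehog list, limma called 2 higher, *PTCH1* by 0.93 and *PAX9* by 0.50 (adjusted p = 0.0414 and 0.015), and 1 lower, *HAND2*.

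**Figure D4:**
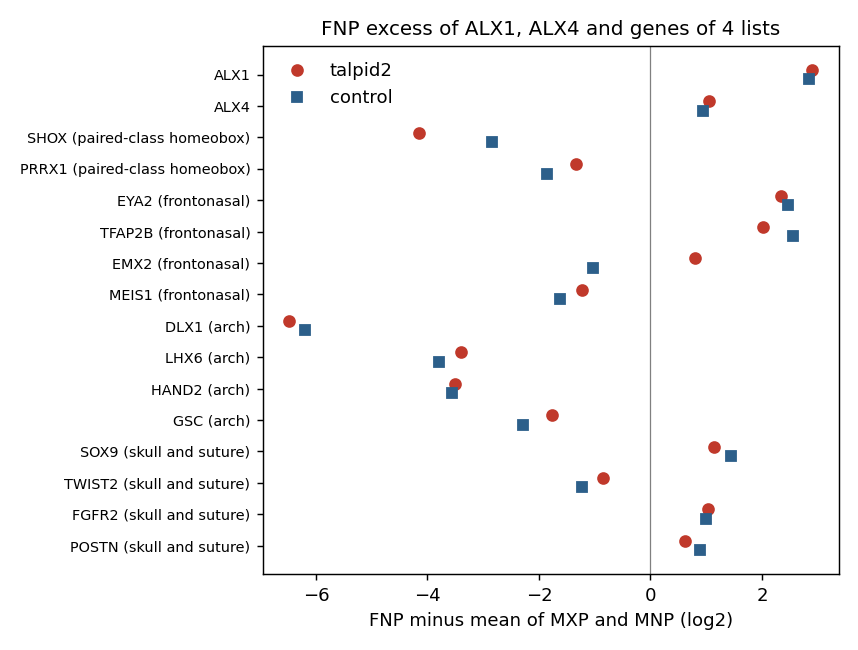
FNP level minus the mean of the MXP and MNP levels (log2, horizontal axis) for *ALX1*, *ALX4* and the named genes of 4 lists without a library at the floor, with *talpid2* as circles and control as squares, 1 value per genotype. *ALX1*, *EYA2* and *TFAP2B* lie above 2 in both genotypes, and the 4 arch genes lie below 0.

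Markers of neighbouring tissues differed between prominences as well, and their part in the FNP excess of *ALX1* and *ALX4* was not tested. Of 6 measured forebrain genes, 0 were called higher and 2 lower in the FNP, among them the neuronal *ELAVL4* at -0.44. The other, *EMX1*, was at the floor in 1 library and within the authors' limits in 1. *SOX2* at 1.05 and *STMN2* at 0.53 lay higher but were not called (limma, adjusted p = 0.0705 and 0.105). *EMX2* was at -0.12 and *DCX* at -0.065, and the list's median was -0.09. Of 3 measured eye and lens genes, 2 were called higher in the FNP. One was *SIX6*, at the floor in 4 libraries. The other was *FOXE3*, which lay within the limits in 1. Of 6 measured muscle genes, 3 were called lower in the FNP, such as *MYOD1* at -1.43, and of 5 epithelial and 7 red cell genes limma called 0 in either direction.

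The genes with the most similar profiles were sought only among those with a symbol other than a LOC number, so an unnamed gene can lie nearer. Similarity was measured by the root mean square difference of the 6 values, each centred on its gene's mean. For *ALX1* the 5 nearest were *PRLL* (0.313), *PCDH9* (0.412), *FER1L3* (0.433), *CYP26B1* (0.443) and *FST* (0.448). Pearson r was between 0.965 and 0.991 over 6 libraries that share their prominences. *CYP26B1* encodes an enzyme that degrades retinoic acid and had 448.2 reads in *talpid2* FNP and 563.3 in control FNP, against 85.84 and 71.04 in *talpid2* and control MNP. *FST* encodes follistatin, a secreted antagonist of activins and BMPs, and had 232.2 and 325 reads in *talpid2* and control FNP, against 29.16 and 43.38 in *talpid2* and control MNP. *PCDH9* is a protocadherin, and *FER1L3* encodes myoferlin, a membrane repair protein. *PRLL*, a prolactin-like gene, had between 2.9 and 46 reads, so its place rests on few. It lay within the authors' limits in 1 library, *PCDH9* in 3, and *FER1L3* and *FST* in 4 each.

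For *ALX4* the nearest profiles were those of *TCTEX1D1* (0.0887), *MREG* (0.106), *HIVEP2* (0.108), *SERTAD4* (0.123) and *NALCN* (0.141), with r between 0.962 and 0.991. *HIVEP2*, a zinc finger gene, had 280.4 reads in *talpid2* FNP and 317.9 in control FNP, 129 in *talpid2* MXP and 161.1 in control MXP, and 184.6 in *talpid2* MNP and 207.8 in control MNP. *NALCN*, a sodium leak channel, ran between 136.7 and 363.7 reads. *TCTEX1D1* and *MREG* had at most 34.24 and 20.24 reads. *MREG* lay within the authors' limits in 1 library, *TCTEX1D1* and *HIVEP2* in 2 each and *NALCN* in 4. Between the *ALX* genes the distance was 1.21 and r was 0.71. Counted over all genes, with or without a symbol, *ALX4* stood at place 340 from *ALX1*, whereas *ALX1* stood at place 10086 from *ALX4*. This distance depends on how widely a gene's values range. *ALX1* ranges widely, so genes with little range lie nearer to *ALX4* than *ALX1* does, whatever their r.

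The region around each gene was examined for genes with a like pattern. Within 500 kb of *ALX1*, 3 other genes were measured. *LOC772233* (ENSGALG00000019347), a gene of 712 bases at positions 43683021 to 43683732, lies 45.6 kb before *ALX1* on the same strand, and its function is not annotated in the sources used here. Its log2 level was 1.99 in *talpid2* FNP and 2.07 in control FNP, -0.09 in *talpid2* MXP and 0.09 in control MXP, and -3.11 in *talpid2* MNP and -2.84 in control MNP. The order of the prominences was that of *ALX1*, with a steeper step between the MXP and the MNP of 3.02 in *talpid2* embryos and 2.92 in control embryos. The fewest reads that give its values were 4189 in *talpid2* FNP and 5328 in control FNP. Its *talpid2* minus control differences were -0.07, -0.17 and -0.27 in the FNP, MXP and MNP, opposite in sign to the 0.22, 0.16 and 0.17 of *ALX1*. No interval was computed for *LOC772233*, whose fewest reads were 129.9 in *talpid2* MNP and 186.7 in control MNP. The *ALX1* interval in the MNP ran from -0.03 to 0.37.

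The other neighbours of *ALX1* did not share its pattern. *SLC6A15*, an amino acid transporter gene 203 kb before it, had an FNP excess of 0.41 in *talpid2* embryos and 0.22 in control embryos. *NTS*, which encodes the peptide neurotensin and lies 293 kb after it, ran the other way, with -2.42 in *talpid2* embryos and -1.70 in control embryos and between 12.7 and 81.92 reads. Within 500 kb of *ALX4*, 12 other genes were measured, with an FNP excess between -0.52 and 0.52 in either genotype. The nearest was *EXT2*, a heparan sulphate polymerase gene 16.7 kb away, at -0.14 in *talpid2* embryos and -0.36 in control embryos. Its *talpid2* minus control difference in the MXP, where *ALX4* was at -0.48, was -0.13. *C2CD3*, the candidate gene for the *talpid2* mutation, is on the same chromosome as *ALX1*, 157 Mb further along.

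**Figure D5:**
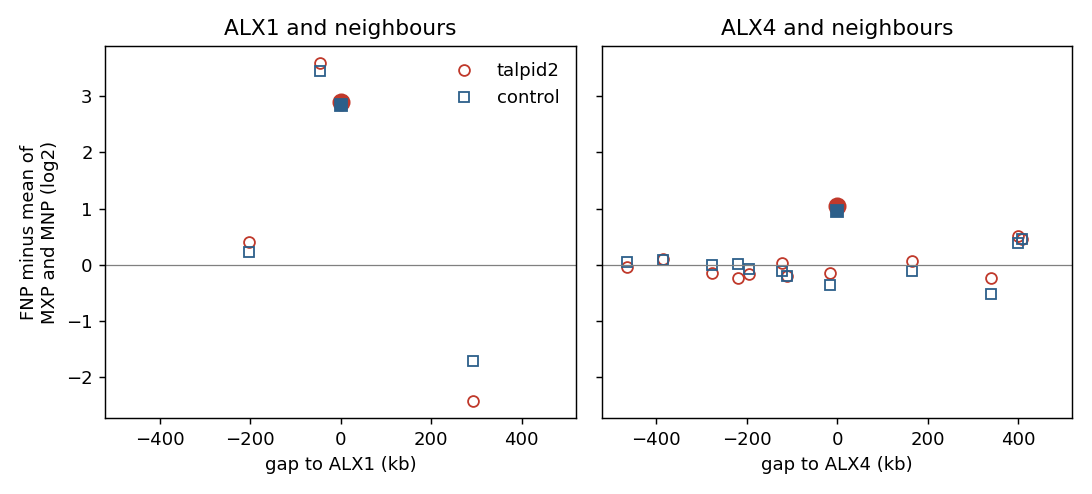
FNP level minus the mean of the MXP and MNP levels (log2, vertical axis) of genes within 500 kb of *ALX1* (left) and *ALX4* (right), by the gap to the gene (kb, horizontal axis), with *talpid2* as circles and control as squares and the *ALX* gene filled at 0. Beside *ALX1*, *LOC772233* lies at 3.59 and 3.44, and the 12 neighbours of *ALX4* lie between -0.52 and 0.52.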

How the data were processed

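RNA from the facial prominences was amplified (Nugen Ovation V2), prepared with TruSeq reagents and sequenced on an Illumina HiSeq 2000. The authors used an Ensembl chick genome and GeneSpring 12.5; the aligner and assembly are not given in the sources used here. The deposited values are log2 values, scaled per library by the authors, with each gene's median subtracted. The authors kept genes within a lower limit of 3.0 and an upper limit of 8607.81 in at least 1 library, on a scale that is not given, and 9128 genes met these in all 6.

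Everything else was computed in Python 3.11.15 (numpy 2.4.6, scipy 1.17.1, pandas 2.3.3, statsmodels 0.14.6, matplotlib 3.10.9) and R 4.3.3 (limma 3.58.1), with no pseudocount. Recovery of reads, as whole bases of 50-base reads, was chosen after seeing the data. With deliberately wrong library scales 0.677% of genes were solved. Tested on simulated data, 98.8% of 587 genes came out right. For *ALX1* and *ALX4*, sought up to 10000 reads, the lowest solution was used in 2-sided exact Audic-Claverie tests (p at most 0.05, uncorrected), 95% intervals and the equal-ratio test. limma fitted prominence and genotype, called at an adjusted p of 0.05, and recovered 86.5% of 200 changed genes in simulated data. Alternatives were *GAPDH* scaling (for the equal-ratio test, added after seeing the data), a median of 0, pseudocounts of 1 and 10, the authors' limits, no genotype term and leaving out each library.

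Entrez identifiers were matched to RefSeq symbols (GRCg7b) for 7479 of 8274. Genes named were *ALX1*, *ALX4*, *GAPDH*, *SHH* and neighbours within 500 kb. List genes called in the FNP or differing by at least 1 between genotypes were also named, at most 4 per list by size. So were the 5 nearest profiles of each *ALX* gene, among genes with a symbol other than a LOC number. *C2CD3*, *PITX1*, *TFAP2A*, *BMP4*, *MSX2*, *EDNRA*, *SOX2*, *STMN2* and *DCX* were added outside this rule, all but *C2CD3* after their values were seen. The members and 10 lists were chosen with earlier results of these data known. No sequence was examined, and promoter motifs were not analysed here.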

Additional observations from a re-analysis of the deposited data

Results flagged for a closer look

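The *talpid2* minus control difference of *ALX4* differed between prominences by the exact conditional test of equal ratios, which rests on single pairs of pooled libraries and covers counting error only. The difference in the FNP minus that in the MXP was 0.38, the FNP minus the MNP was -0.18 and the MXP minus the MNP was -0.57. With *GAPDH* set equal, the FNP minus the MNP was -0.091 and did not pass. The MXP stood apart, with a level of -0.55 in *talpid2* embryos and -0.07 in control embryos, whereas the FNP and MNP differed between genotypes by -0.10 and 0.09.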

How the results depend on the processing

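Of 96 alternative values for *ALX1* and *ALX4*, 87 kept their direction and their side of the threshold and 0 reversed. The pseudocount alternatives changed the values only and kept the p of the main test, so their side of the threshold could not change. Setting the median over all genes to 0 moved values little, for instance *ALX4* in control FNP minus MXP from 0.962 to 0.969. The 87 therefore include values that were fixed in advance or hardly free to move. With *GAPDH* set equal, the *talpid2* minus control difference of *ALX1* in the MXP was 0.044 and that of *ALX4* in the FNP -0.085, neither past the Audic-Claverie threshold, the difference between the FNP and MNP ratios of *ALX4* was -0.091, no longer past the threshold, that between the FNP and MXP ratios of *ALX1* was 0.18, now past it, and limma called 7246 genes in the FNP against the rest, with a main count of 1110. *GAPDH* scaling moved the share of higher calls at a difference of 1 to 38.9% for *talpid2* FNP minus MXP (as deposited 56.3%), 28.3% for *talpid2* FNP minus MNP (48.5%), 31.4% for control FNP minus MXP (58.8%), 19.7% for control FNP minus MNP (45.7%) and 40.3% for MXP *talpid2* minus control (52.2%). Leaving out each library in turn gave an FNP excess of *ALX4* between 0.88 and 1.12, past the threshold in 1 of 6 cases, an excess of *ALX1* between 2.85 and 2.90, past it in 6 of 6, and between 292 and 469 calls over all genes; these fits have 1 residual degree of freedom, and a lone sample is assumed to vary like the others. Keeping those genes alone that met the authors' limits in all 6 libraries left 37, 29 and 15 genes past 1 between genotypes in the FNP, MXP and MNP, and 219, 255 and 173 in *talpid2* and 253, 246 and 167 in control embryos for FNP minus MXP, FNP minus MNP and MXP minus MNP. The limma fit holds both prominence and genotype, so each is compared within the other. Without the genotype term, 949 genes were called in the FNP. The *talpid2* minus control difference of *ALX4* lay between -0.29 and -0.0038 when a library was left out. In the MNP, the counting interval of the *talpid2* minus control difference included 0 for both *ALX* genes. The lack of replicate libraries limits every difference between genotypes.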
